A study of Mus musculus with 6 samples.

Results

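The genes described here are 40 nucleolar ribosome biogenesis factors, among them subunits and initiation factors of RNA polymerase I. They were chosen by gene symbol, from array rows whose platform annotation gives exactly 1 symbol, and all 40 were measured among 19935 genes in all. RNA came from CD4+CD62L- resting T cells, sorted from mouse lymph nodes and hybridised to 1-colour MoGene 1.0 ST arrays without any treatment of the cells. The 3 Dicer KO samples came from CD4Cre pos Dicer lox/lox animals and the 3 Dicer WT samples from CD4Cre neg Dicer lox/lox animals, so both genotypes carry the floxed alleles and differ in the Cre transgene. The Cd4 promoter that drives Cre is active from the double-positive thymocyte stage, and deletion thus precedes the mature T cell. The samples are called biological replicates in the series' design text, with no statement on pooling of animals.

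Ribosomes are built in the nucleolus. RNA polymerase I transcribes the ribosomal DNA into a long precursor, which small nucleolar ribonucleoproteins (snoRNPs) modify and assembly factors cut, fold and package into the small and large subunits. Box C/D snoRNPs add methyl groups to ribose and box H/ACA snoRNPs convert uridine to pseudouridine. The proteins of the box H/ACA particle also bind the telomerase RNA. In T cells this machinery is known to expand when the cell leaves rest and grows, and Myc is a well-known activator of it.

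Every value below is a deposited log value, read as log2 and expressed by the authors relative to the row's median on the 6 arrays. The values are therefore differences between arrays and not levels. For a gene read by a single array row whose genotypes do not overlap, the nearest KO and WT arrays lie at the same distance below and above 0. Differences are Dicer KO minus Dicer WT, tested with limma and Benjamini-Hochberg adjustment over all 19935 genes at an adjusted p of 0.05. Fewer cells of a type and less RNA per cell cannot be told apart in such bulk samples. The row of Dicer1, the targeted gene, read 0.21, -0.02 and -0.09 on Dicer KO 1 to 3, against 0.12, 0.02 and -0.10 on Dicer WT 1 to 3 (difference 0.02 ± 0.09 SE, adjusted p = 0.949). The stretch of transcript that this row reads is unstated in the sources used here, so it does not check the deletion. Of 8 measured T cell markers, Cd4 was higher in Dicer KO (0.67 ± 0.07, adjusted p = 0.00328), Cd5 was lower (-0.44 ± 0.06, adjusted p = 0.00704) and the other 6 did not pass. All 8 lay in the higher of 2 coarse level classes, against 1 of 17 B cell markers and 1 of 16 myeloid markers.

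Of the 40 nucleolar genes, 7 fell in Dicer KO and 0 rose in the limma test, with 12 lower and 2 higher at an unadjusted p under 0.05. Over all genes, 2.79% fell and 5.94% rose, 8.73% in either direction, while 21.5% had an unadjusted p under 0.05. The share of nucleolar genes that fell was 17.5%. The genes that fell were Nhp2, Dkc1 and Nop10 of the box H/ACA particle, the nucleolar chaperone Npm1, the small subunit factors Tsr1 and Utp20, and the large subunit factor Nop16. Their falls were modest, between 1.22-fold and 1.70-fold. Of the 33 genes that did not pass, 26 had a negative and 7 a positive difference. A negative difference was found for 82.5% of the 40 genes, beside 54.8% of all genes. The median difference of the 40 genes was -0.09 on the log2 scale, beside -0.01 for all genes. KO and WT arrays stood clear of each other for 12 genes on the low side and 2 on the high side, beside 12.7% and 13.5% of all genes. Of the 40 genes, 21 lay in the higher level class, beside 3318 of all 19935 genes. With that class tested alone, 5 of the 21 fell and 1 rose, while 1027 of the 3318 passed in either direction. Leaving out Dicer KO 2 left 4 of the 40 genes lower, while calls over all genes, in either direction, went from 1741 to 729. Leaving out Dicer WT 1 together with Dicer WT 3, the arrays with low B cell genes, left 0 genes past the adjusted threshold with limma, in a fit that rests on Dicer WT 2 as the lone WT array, whose spread is assumed to be that of the KO arrays. At an unadjusted p under 0.05 that fit had 10 genes lower and 1 higher.

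**Figure D1:**
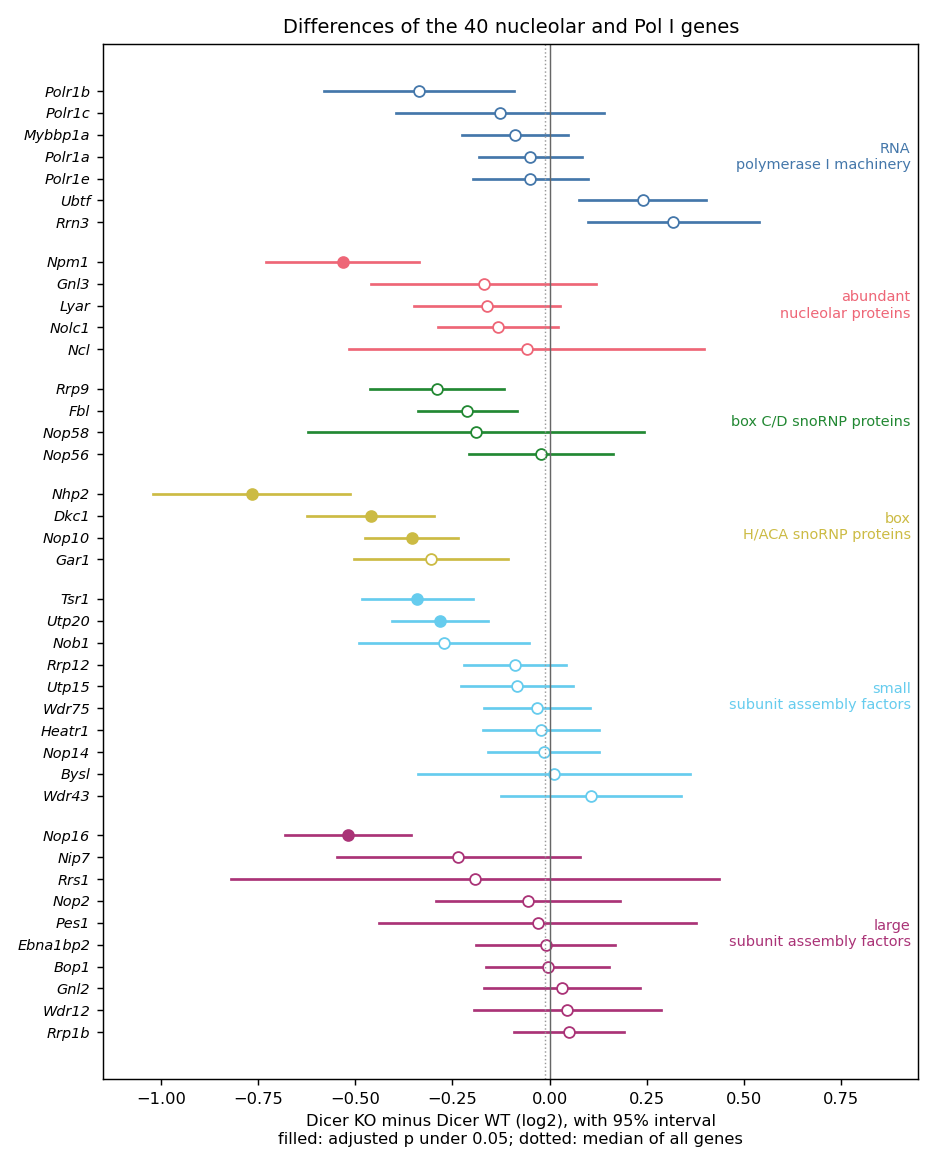
Difference between Dicer KO and Dicer WT (log2, horizontal axis) for each of the 40 genes, grouped by role, with 95% intervals from the limma fit. Filled points passed the adjusted threshold, and all 7 of them lie left of 0, from -0.77 for Nhp2 to -0.28 for Utp20.

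The box H/ACA proteins were the group with the most falls, 3 of 4. Nhp2, an RNA-binding core protein of the particle, read -0.44, -0.49 and -0.20 on Dicer KO 1 to 3, against 0.20, 0.42 and 0.54 on Dicer WT 1 to 3. Every KO array lay below every WT array, with Dicer KO 3 and Dicer WT 1 nearest to each other. The difference was -0.77 ± 0.11 (SE, n = 3 each, adjusted p = 0.00716), a fall of 1.70-fold and the only one beyond 1.5-fold among the 40 genes. Dkc1, the pseudouridine synthase itself, read -0.20, -0.35 and -0.15 in Dicer KO, against 0.30, 0.22 and 0.15 in Dicer WT. It fell 1.38-fold (-0.46 ± 0.07, adjusted p = 0.00934). The groups again did not overlap, and Dicer KO 2 was the lowest array. Nop10, the small protein that binds Dkc1, read -0.23, -0.22 and -0.14 in Dicer KO, against 0.14, 0.20 and 0.14 in Dicer WT. Its arrays were close together within each genotype, and it fell 1.28-fold (-0.36 ± 0.05, adjusted p = 0.00768). Gar1, the remaining protein of the particle, read -0.17, -0.25 and -0.03 in Dicer KO, against 0.28, 0.03 and 0.15 in Dicer WT. Its genotypes did not overlap either, but its difference of -0.31 ± 0.08 did not pass (adjusted p = 0.0729; 95% interval -0.50 to -0.11). Gar1 passed with array weights, with centring within level classes and when only higher-class genes were tested (adjusted p 0.0334 to 0.0405). Nhp2, Dkc1 and Nop10 were called in each of the 6 fits that left out 1 array, with adjusted p no higher than 0.0437. Without Dicer WT 1 and 3 together their differences were -0.80, -0.46 and -0.40, with adjusted p from 0.0787 to 0.135.

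**Figure D2:**
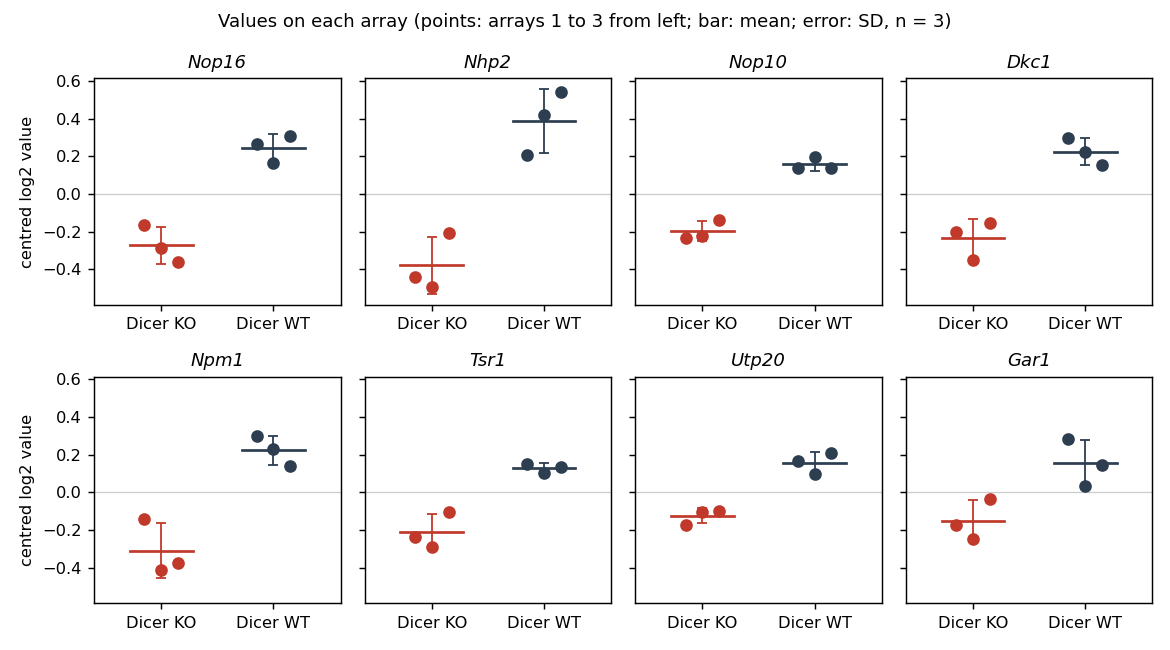
Centred log2 values on each array for the 7 genes that passed the threshold and for Gar1, with Dicer KO in red on the left and Dicer WT in dark blue on the right; bars are means and error bars SD (n = 3). In every panel the 3 KO points lie below the 3 WT points, and the gap is narrowest for Gar1.

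Partners of the box H/ACA particle were measured too. The assembly chaperones Naf1 and Shq1 had differences of -0.02 ± 0.07 and -0.04 ± 0.06 (adjusted p = 0.933 and 0.757). Terc and Tert, the RNA and the reverse transcriptase of telomerase, were looked up after the values of the particle's proteins had been seen. Terc read -0.19, -0.17 and -0.11 in Dicer KO, against 0.11, 0.18 and 0.25 in Dicer WT, a fall of 1.26-fold (-0.33 ± 0.06, adjusted p = 0.0144). The call was lost without Dicer KO 2 or Dicer WT 2 (adjusted p 0.0513 to 0.0676). Tert had a difference of -0.04 ± 0.05 (adjusted p = 0.751).

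Promoters are shown for the 4 box H/ACA genes, none of which had KO and WT arrays that overlapped, and for Tsr1 and Utp20, the genes among those that fell whose window held an E-box, the site bound by Myc and Max. Sequences are from RefSeq, build GRCm38.p6, and run 5′ to 3′ on the gene's strand from 250 bases before the start to 50 after it. Capitals mark CACGTG (E-box) or CCGGAAG (an ETS-type motif), searched on both strands.
Nhp2, chr11:51619523-51619822, plus strand: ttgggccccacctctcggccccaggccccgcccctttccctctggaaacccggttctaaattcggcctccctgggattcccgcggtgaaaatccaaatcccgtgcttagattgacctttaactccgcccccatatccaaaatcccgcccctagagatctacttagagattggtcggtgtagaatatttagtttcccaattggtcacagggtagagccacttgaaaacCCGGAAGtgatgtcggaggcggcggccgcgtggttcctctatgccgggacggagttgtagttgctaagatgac
Dkc1, chrX:75095604-75095903, plus strand: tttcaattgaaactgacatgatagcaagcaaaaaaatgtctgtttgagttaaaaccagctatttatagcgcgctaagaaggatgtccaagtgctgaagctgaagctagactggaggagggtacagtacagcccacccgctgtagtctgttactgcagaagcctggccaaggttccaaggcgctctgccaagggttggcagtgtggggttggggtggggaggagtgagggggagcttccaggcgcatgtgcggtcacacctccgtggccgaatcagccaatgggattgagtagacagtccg
Nop10, chr2:112261676-112261975, plus strand: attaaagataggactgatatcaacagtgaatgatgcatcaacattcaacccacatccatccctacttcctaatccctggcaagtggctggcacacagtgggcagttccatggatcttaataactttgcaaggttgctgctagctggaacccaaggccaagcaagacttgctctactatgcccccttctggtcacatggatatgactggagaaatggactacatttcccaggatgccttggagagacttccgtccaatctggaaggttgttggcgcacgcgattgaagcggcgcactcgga
Gar1, chr3:129831347-129831646, minus strand: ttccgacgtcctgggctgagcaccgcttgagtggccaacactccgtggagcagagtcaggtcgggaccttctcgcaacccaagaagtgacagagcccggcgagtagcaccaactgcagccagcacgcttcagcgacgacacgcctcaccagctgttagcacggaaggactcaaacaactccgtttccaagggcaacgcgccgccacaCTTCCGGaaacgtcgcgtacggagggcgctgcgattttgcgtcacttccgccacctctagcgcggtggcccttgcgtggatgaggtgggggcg
Tsr1, chr11:74897830-74898129, plus strand: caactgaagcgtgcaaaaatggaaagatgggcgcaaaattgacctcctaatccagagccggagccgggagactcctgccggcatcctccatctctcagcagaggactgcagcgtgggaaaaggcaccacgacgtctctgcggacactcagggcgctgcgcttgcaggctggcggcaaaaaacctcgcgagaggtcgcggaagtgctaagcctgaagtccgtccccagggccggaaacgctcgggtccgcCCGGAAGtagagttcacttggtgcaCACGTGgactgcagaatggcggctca
Utp20, chr10:88826765-88827064, minus strand: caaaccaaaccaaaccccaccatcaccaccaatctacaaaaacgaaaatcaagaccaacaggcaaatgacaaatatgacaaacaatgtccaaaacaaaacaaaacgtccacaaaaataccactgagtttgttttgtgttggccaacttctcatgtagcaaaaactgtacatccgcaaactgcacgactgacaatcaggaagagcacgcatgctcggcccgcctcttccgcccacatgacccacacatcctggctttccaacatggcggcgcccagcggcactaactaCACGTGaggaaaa
The windows of Nhp2 and Gar1 held CCGGAAG upstream of the start, at -23 to -17 in Nhp2 and, on the opposite strand, at -43 to -37 in Gar1. In Tsr1 that motif ran from -1 to 6 and the E-box from 25 to 30. In Utp20 the E-box ran from 38 to 43, also after the start. Neither motif occurred in the windows of Dkc1 and Nop10. The table held 42 windows for 34 of the 40 genes, and Npm1, Fbl, Bop1, Gnl2, Rrp12 and Rrs1 had no entry. Of these windows 16.7% held the E-box and 26.2% CCGGAAG, against 7.15% and 8.86% of all 32851 windows. Of the 7 genes with an E-box, Tsr1 and Utp20 fell, beside 7 of all 40 nucleolar genes (17.5%). The other 5, Mybbp1a, Nop2, Pes1, Rrn3 and Wdr43, did not pass. Of the 11 genes with CCGGAAG, Nhp2 and Tsr1 fell. Ebna1bp2, Gar1, Heatr1, Nip7, Nolc1, Nop2, Polr1c, Polr1e and Rrn3 held that motif and did not pass. The palindromic NRF1-type motif occurred in 0 of the 42 windows, beside 0.971% of all windows. The E-box and CCGGAAG matches in Tsr1 share no base, and a match describes letters only.

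Among abundant nucleolar proteins, 1 of 5 fell. Npm1, or nucleophosmin, a histone and ribosome chaperone of the outer nucleolus, read -0.14, -0.41 and -0.37 in Dicer KO, against 0.30, 0.23 and 0.14 in Dicer WT. Dicer KO 1 stood closest to the WT arrays, and the groups did not overlap. Npm1 fell 1.45-fold (-0.53 ± 0.08, adjusted p = 0.0106), but did not pass when Dicer KO 2 was left out (adjusted p = 0.0502). A further 3 array rows are annotated to both Npm1 and Gm15484 and were left out of the test, so transcripts of near-identical copies may also be read by such rows. On these 3 rows the KO arrays lay between -0.25 and -0.07 and the WT arrays between 0.07 and 0.28, with differences of -0.35, -0.34 and -0.35. Ncl, or nucleolin, which binds precursor rRNA, read 0.19, -0.16 and -0.32 in Dicer KO, against 0.18, 0.16 and -0.44 in Dicer WT. The arrays of both genotypes spread over the same range, lowest on replicate 3 of each, and the difference was -0.06 (95% interval -0.52 to 0.40). Nolc1, a snoRNP chaperone, Gnl3, the GTPase nucleostemin, and Lyar had differences of -0.13, -0.17 and -0.16, with adjusted p from 0.316 to 0.518.

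All 4 box C/D snoRNP proteins had negative differences and 0 of them passed in the limma test, with 2 at an unadjusted p under 0.05. Fbl, fibrillarin, the methyltransferase of the particle, read -0.17, -0.16 and -0.04 in Dicer KO, against 0.11, 0.07 and 0.09 in Dicer WT. Its difference was -0.21 ± 0.05 (adjusted p = 0.057). Rrp9, a protein of the U3 particle that guides early cleavage, had a difference of -0.29 ± 0.07 (adjusted p = 0.0555). Neither gene's genotypes overlapped, for Fbl on the average of its 2 array rows. These rows gave different limma calls, -0.27 (adjusted p = 0.0232 over all rows) and -0.16 (adjusted p = 0.219). On the second row Dicer KO 3 lay above Dicer WT 3, at 0.003 against -0.003, so the genotypes overlapped there. Nop58 and Nop56, the paired core proteins of the particle, differed by -0.19 ± 0.18 and -0.02 ± 0.08 (adjusted p = 0.654 and 0.925). Nop58 was among the most variable of the 40 genes within a genotype, at 0.16, -0.20 and -0.16 in Dicer KO, against 0.38, 0.29 and -0.30 in Dicer WT.

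Of 10 small subunit assembly factors, 2 fell. Tsr1, a GTPase-like factor that accompanies the precursor of the small subunit to the cytoplasm, read -0.23, -0.29 and -0.10 in Dicer KO, against 0.15, 0.10 and 0.14 in Dicer WT. It fell 1.27-fold (-0.34 ± 0.06, adjusted p = 0.017). Utp20, a large scaffold protein of early small subunit assembly, read -0.17, -0.10 and -0.10 in Dicer KO, against 0.17, 0.10 and 0.21 in Dicer WT. It fell 1.22-fold (-0.28 ± 0.05, adjusted p = 0.0201). Neither gene's genotypes overlapped, with the WT arrays of Tsr1 the most closely grouped. Tsr1 lost its call without Dicer KO 1, Dicer KO 2, Dicer WT 1 or Dicer WT 2 (adjusted p 0.0515 to 0.0719), and Utp20 without Dicer KO 1, Dicer KO 2 or Dicer WT 1 (0.0628 to 0.0788). Nob1, the endonuclease that cuts the 3′ end of 18S rRNA, had a difference of -0.27 ± 0.09 with no overlap between genotypes (adjusted p = 0.137). The components of the small subunit processome that work beside Utp20 gave small differences: Heatr1 -0.02, Nop14 -0.02, Wdr75 -0.03, Utp15 -0.08 and Wdr43 0.11, with 95% intervals that together spanned -0.23 to 0.34. Rrp12, an export factor, had a difference of -0.09 ± 0.06 and Bysl, bystin, one of 0.01 ± 0.15. Bysl read -0.11, -0.11 and 0.42 in Dicer KO, so Dicer KO 3 stood apart from the other KO arrays.

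Of 10 large subunit assembly factors, 1 fell. Nop16, a nucleolar protein of early large subunit precursors, read -0.17, -0.29 and -0.36 in Dicer KO, against 0.27, 0.17 and 0.31 in Dicer WT. It fell 1.43-fold (-0.52 ± 0.07), had the lowest adjusted p of the 40 genes (0.00562) and was called in each fit that left out 1 array. The genotypes did not overlap and were farther apart than the spread within either. The trimeric PeBoW complex, which is needed for processing of the large subunit rRNA, showed differences near 0. Pes1 differed by -0.03 (95% interval -0.44 to 0.38), Bop1 by -0.00 (-0.16 to 0.15) and Wdr12 by 0.05 (-0.20 to 0.29). Nop2, a methyltransferase of 28S rRNA, and its partner Nip7 differed by -0.05 ± 0.10 and -0.24 ± 0.13, with neither past the threshold. Ebna1bp2, the GTPase Gnl2 and Rrp1b lay between -0.01 and 0.05. Rrs1, which helps bring the 5S particle into the large subunit, had the widest spread of all 40 genes. It read -0.65, -0.34 and 0.52 in Dicer KO, against 0.03, -0.03 and 0.10 in Dicer WT, and its difference of -0.19 had a 95% interval from -0.82 to 0.44. Without Dicer KO 3 the difference of Rrs1 was -0.53 (adjusted p = 0.0362).

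Of the 7 genes of the RNA polymerase I machinery, 0 passed in either direction, and 3 had an unadjusted limma p under 0.05. The initiation factors and a catalytic subunit differed in sign. Rrn3, or TIF-IA, which makes the polymerase competent to start, read 0.04, 0.07 and 0.26 in Dicer KO, against -0.20, -0.34 and -0.04 in Dicer WT. Ubtf, which binds the ribosomal DNA promoter and gene body, read 0.04, 0.24 and 0.21 in Dicer KO, against -0.14, -0.04 and -0.04 in Dicer WT. Polr1b, the second-largest subunit, read -0.34, -0.37 and -0.02 in Dicer KO, against 0.04, 0.02 and 0.21 in Dicer WT. The arrays did not overlap for these 3 genes, with the KO arrays higher for Rrn3 and Ubtf and lower for Polr1b. Their differences were 0.32 ± 0.09, 0.24 ± 0.07 and -0.34 ± 0.10, with adjusted p of 0.0893, 0.0877 and 0.104. With the arrays centred within the coarse level classes, the differences of Rrn3 and Ubtf were 0.23 and 0.16 (adjusted p = 0.254 and 0.30), and with array weights all 3 genes passed. Rrn3 also passed when only higher-class genes were tested and without Dicer WT 3, Ubtf without Dicer KO 1 and Polr1b without Dicer KO 3 (adjusted p 0.0235 to 0.044). The largest subunit Polr1a and the subunits Polr1c and Polr1e differed by -0.05, -0.13 and -0.05, and the nucleolar regulator Mybbp1a by -0.09, with adjusted p from 0.471 to 0.75.

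The spread between replicates differed among the genes. The median within-genotype SD was 0.105 for the 40 genes and 0.0873 for the 7 that fell, beside 0.0846 for all genes. Rrs1, Ncl, Nop58, Pes1 and Bysl varied most. Dicer KO 3 was the highest KO array for 25 of the 40 genes, a count that was not made over all genes. The median of all genes was -0.003, -0.007 and 0.005 on Dicer KO 1 to 3. On the same arrays the median of 29 cell cycle genes was -0.00, 0.15 and 0.47 on Dicer KO 1 to 3, against -0.12, -0.01 and -0.15 on Dicer WT 1 to 3. Pcna alone passed the adjusted threshold among these 29 genes, higher in Dicer KO. Of them 26 had a positive difference, with a median of 0.31, and 13 were higher and 0 lower at an unadjusted limma p under 0.05. The median of 17 B cell markers was 0.06, 0.05 and 0.08 in Dicer KO, against -0.56, 0.02 and -0.27 in Dicer WT. Bank1 alone of these markers passed the adjusted threshold, higher in Dicer KO. A positive difference was found for 16 of the 17, with a median of 0.33, and 9 were higher and 0 lower at an unadjusted limma p under 0.05. Medians of the myeloid, CD8 T and NK cell, and erythroid and stromal lists lay between -0.10 and 0.06 on every array, and of these lists Lyz2 (0.69 ± 0.12, adjusted p = 0.0165) and Pecam1 (0.75 ± 0.07, adjusted p = 0.00158) rose. Of 14 activation genes, Cd69 and Tnfrsf9 rose and Egr1 and Nr4a1 fell. The part of the genes of these lists in the nucleolar result was not tested.

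**Figure D3:**
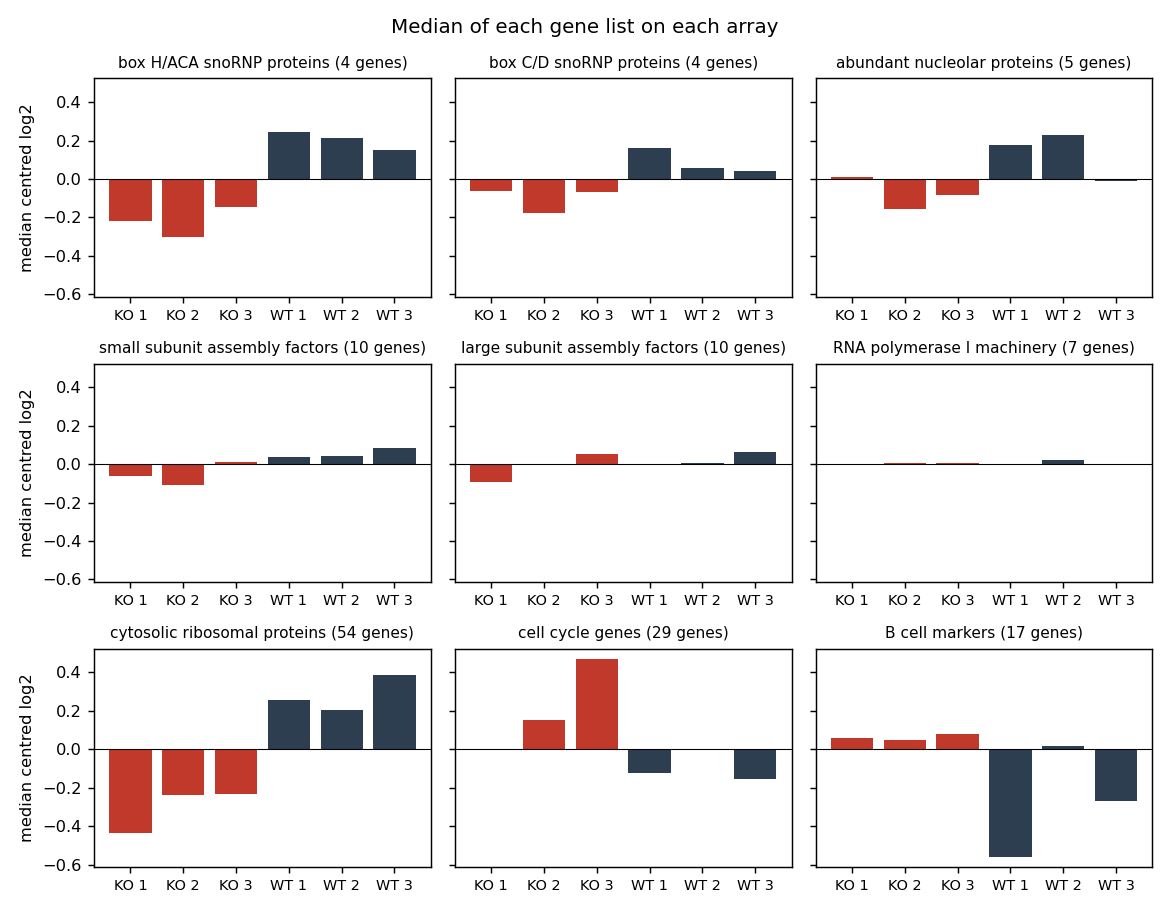
Median centred log2 value of each gene list on each array (bars start at 0), with Dicer KO in red on the left and Dicer WT in dark blue on the right. The box H/ACA medians lie between -0.30 and -0.14 on the KO arrays and between 0.15 and 0.24 on the WT arrays, while those of the RNA polymerase I machinery stay between -0.00 and 0.02.

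A wider list of 102 measured genes of ribosome biogenesis, written from general knowledge of the pathway, had 9 members lower and 3 higher in Dicer KO, with a median of -0.07. Its share of falls was 8.82%, beside 2.79% of all genes, and its 3 rises among 102 genes stand beside 5.94% of all genes. The falls numbered 5 without Dicer KO 1 or without Dicer WT 2, 3 without Dicer WT 1 and 2 without Dicer KO 2. The rises numbered 0 without Dicer KO 2 (6 at an unadjusted limma p under 0.05), 1 without Dicer WT 1 and 2 without any other array. The large subunit part of this list also held snoRNP assembly factors, among them Naf1, Shq1 and Nufip1. Of its 46 genes, 5 fell, among them Nsa2 (-0.53 ± 0.06, adjusted p = 0.00319) and Nop53 (-0.61 ± 0.09, adjusted p = 0.00975). Nsa2 is a factor of late nucleolar large subunit precursors and Nop53 recruits the exosome to them in yeast. Nle1 (-0.29 ± 0.06, adjusted p = 0.0219) and the giant ATPase Mdn1 (-0.46 ± 0.10, adjusted p = 0.029), which act together in yeast to release assembly factors, also fell. Nle1 and Mdn1 each kept the call in only 2 of the 6 fits without 1 array, whereas Nsa2 kept it in 6 and Nop53 in 5. Of the 43 small subunit genes, Nat10, the acetyltransferase of 18S rRNA, fell (-0.42 ± 0.08, adjusted p = 0.0174) and the kinase Riok3 rose (0.43 ± 0.09, adjusted p = 0.0371). The call of Nat10 was lost without Dicer KO 2, Dicer KO 3 or Dicer WT 1, and that of Riok3 in all fits but the one without Dicer WT 2. Of the 13 further genes of ribosomal DNA transcription, 3 fell and 1 rose. Znrd1, a small RNA polymerase I subunit now called Polr1h, read -0.40, -0.38 and -0.22 in Dicer KO, against 0.26, 0.37 and 0.22 in Dicer WT. It fell 1.54-fold (-0.62 ± 0.07, adjusted p = 0.00329), with no overlap, and was called in each fit without 1 array. Cd3eap, another polymerase subunit, named after its value was seen, fell (-0.34 ± 0.08, adjusted p = 0.0448) but did not pass without Dicer KO 1, Dicer KO 2, Dicer WT 1 or Dicer WT 3 (adjusted p 0.0991 to 0.159), or with centring within level classes (0.0521). Kdm2a, a demethylase that represses ribosomal DNA, rose (0.28 ± 0.05, adjusted p = 0.0142) but not without Dicer KO 2 or Dicer WT 1. Centring within the level classes took Kdm2a to 0.20 (adjusted p = 0.0643) and Riok3 to 0.34 (adjusted p = 0.064). On the large subunit list, Nufip1, an assembly factor of box C/D snoRNPs, rose (0.26 ± 0.05, adjusted p = 0.0158), though not without Dicer KO 2, Dicer WT 1 or Dicer WT 2.

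The cytosolic ribosomal proteins are the cargo that these factors assemble. Of 54 measured, 49 fell and 0 rose, with a median of -0.59, beside -0.09 for the 40 nucleolar genes and -0.01 for all genes. Rps19 (-0.996 ± 0.07, adjusted p = 0.000965) and Rpl36a (-1.07 ± 0.09, adjusted p = 0.00126) are examples. Processed pseudogenes are many in this family, and their transcripts may be read by the same rows. The falls numbered 35 to 47 when 1 array was left out and 4 without Dicer WT 1 and 3 together, where the median was -0.50. The difference between these lists was not tested. The nucleolar gene that fell most, Nhp2, lay beyond the median of the ribosomal proteins, and the 6 others that fell lay short of it.

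**Figure D4:**
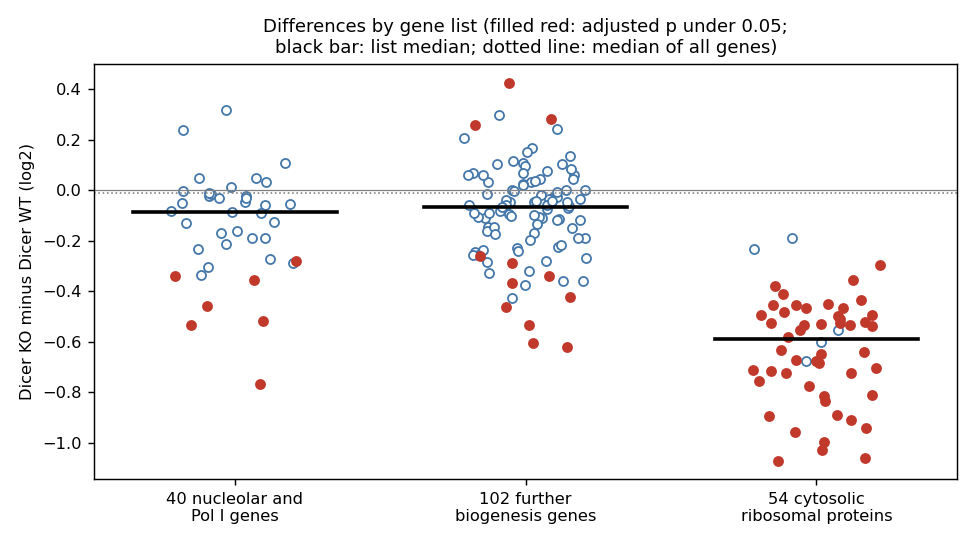
Difference between Dicer KO and Dicer WT (log2) for each gene of the 40 nucleolar and Pol I genes, 102 further biogenesis genes and 54 cytosolic ribosomal proteins; red points passed the adjusted threshold and black bars are list medians. The medians are -0.09, -0.07 and -0.59, and every ribosomal protein lies below 0.

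Of 10 genes of the Myc and Max network, 3 rose and 0 fell in the limma test, beside 5.94% and 2.79% of all genes. At an unadjusted limma p under 0.05, 4 were higher and 1 was lower. Max, the shared partner of the network, rose 1.32-fold (0.40 ± 0.05, adjusted p = 0.00562). Mxd4 (0.44 ± 0.09, adjusted p = 0.0239) and Mxd1 (0.46 ± 0.11, adjusted p = 0.0451), repressors that compete with Myc for Max, rose too. Max was called in each fit without 1 array, Mxd4 in 3 of 6, not without Dicer KO 1, Dicer KO 2 or Dicer WT 1, and Mxd1 in 0 of 6 (adjusted p 0.0564 to 0.118). Myc read 0.00, 0.31 and 0.18 in Dicer KO, against -0.00, -0.07 and -0.21 in Dicer WT. Its arrays did not overlap, but only just, with Dicer KO 1 at 0.0003 and Dicer WT 1 at -0.0003. The difference of Myc was 0.26 ± 0.09 (limma adjusted p = 0.156). Mycn differed by -0.22 ± 0.07 (adjusted p = 0.107). The remaining members Mxd3, Mxi1, Mnt, Mlx and Mga had differences between -0.15 and -0.00.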

How the data were processed

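RNA of 3 Dicer KO and 3 Dicer WT samples was hybridised to Affymetrix MoGene 1.0 ST arrays, 1 sample per array. The authors deposited 1 table of 28815 array rows by 6 arrays, whose log values were taken as log2. MAS5 stands in the submitters' processing notes, without a version or role. Log base and normalization are unstated in the sources used here, and every fold assumes base 2. The values are centred on the median of each row over the 6 arrays (largest absolute row median 5e-07), run from -2.59 to 3.00 and have 0 missing, so they hold no expression levels. The coarse level class of a row was read from the binary step of its stored numbers; the higher class holds 17.9% of rows, is a rough guide, and leans towards genes high in both genotypes. The number of arrays limits the precision.

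Gene names came from GEO's platform annotation: 21780 rows carried 1 symbol (21689 matched RefSeq GRCm38.p6 by gene ID), 1605 several and 5430 none. Rows of 1 symbol gave 19935 genes, 998 of them averaged over several rows. Polr1f, Polr1g and Polr1h were measured under the names Twistnb, Cd3eap and Znrd1. Genotypes come from the labels, which do not say that samples are separate animals beyond calling them biological replicates. Genes were tested in R 4.3.3 by limma 3.58.1 (moderated linear models, Benjamini-Hochberg over all genes, adjusted p 0.05); tables were made with pandas 2.3.3 in Python 3.11.15. Data were simulated for Dicer KO against Dicer WT (19935 genes), with independent normal noise at each gene's own spread. Changes of 0.5, 1 and 2 on the log2 scale were put into 80, 80 and 40 genes. On these simulated data the share recovered was 52.5% for changes of 0.5, 93.8% for changes of 1 and 100% for changes of 2. There, 0 signs were wrong and 3 calls false. Variation shared between genes on an array was not simulated. The changed genes were also a smaller part of all genes than the 8.73% called on the real arrays. Both bear on which genes pass, so the shares recovered may differ for the real arrays.

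The 40 genes, the other lists and the tests were chosen with earlier results of these data known, so no list was tested as a whole. All 40 are named, with array values for those past the threshold and for some others, chosen after their values were seen. Of the further genes, up to 6 rises and 6 falls of lowest p are named, of the Myc and Max network all, and of ribosomal proteins the 2 falls of lowest p. Alternatives were array weights, robust eBayes, the replicate number as a block, arrays centred on their median or within level classes, and the higher class alone. Further ones were rows tested singly, with each gene's row of lowest p kept, and arrays left out.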

Additional observations from a re-analysis of the deposited data

How the results depend on the processing

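The 7 falls among the 40 nucleolar genes numbered 4 to 10 when 1 array was left out, with 4 without Dicer KO 2, and the rises 0 to 1. Calls over all genes, in either direction, numbered 1741 in the main fit. They numbered 729 to 1597 when 1 array was left out, with 729 without Dicer KO 2. With array weights 11 of the nucleolar genes fell and 2 rose, while 2537 of all genes passed. With the replicate number as a block 10 fell and 2 rose, while 2063 of all genes passed. Gar1, Nob1 and Polr1b were the added falls with the block, and Rrn3 and Ubtf the rises. Among the 21 genes of the higher level class 5 fell and 1 rose, in a fit of fewer genes where 1027 of 3318 passed in either direction. Without Dicer WT 1 and 3 together there were 0 falls by limma (10 at an unadjusted p under 0.05) in a fit of fewer samples. Robust eBayes and centring each array on its median each gave 7 falls and 0 rises. Centring within level classes gave 8 and 0, as did testing rows singly and keeping each gene's row of lowest p. That choice favours calls, and the fall it added was Fbl, by 1 of its 2 rows. The median difference of -0.09 ran from -0.12 to -0.06 over the fits without 1 array. It was -0.14 with centring within level classes and -0.13 without these WT arrays. The 9 falls among the further genes numbered 2 to 10 without 1 array, 17 with array weights and 0 without both WT arrays. Their 3 rises numbered 0 to 2 without 1 array, 1 with centring within level classes and 0 without both WT arrays. The cause of these shifts was not tested. Over 66 single genes and all settings, 867 values were recomputed. Of these, 72 lost the call, 23 gained it and 0 called values changed sign. In 21 genes, 56 uncalled values changed sign, none over 0.22 in size, so the sign of a small uncalled difference depends on the setting. No label states that the replicate numbers pair the samples. Deviations of same-numbered arrays from their genotype mean correlated at 0.274, -0.076 and 0.30. Those of differently numbered arrays correlated between -0.366 and 0.227. Deviations from means of 3 arrays cannot settle whether the samples are paired. The block therefore rests on a shared number only.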
